A study of Mus musculus with 2 samples.

Results

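The genes of the p53, RB and NF1 pathways that are lost most often in glioma, together with the best known transcriptional targets of p53, were followed across the cell types of a mouse glioblastoma. They were Trp53, Nf1, Cdkn2a, Cdkn2b, Rb1, Cdkn1a, Mdm2, Ccng1 and Zmat3, taken by symbol, 9 of the 19059 genes in the deposited matrices. Tumors grew in the brain of female C57BL/6J mice from mGSC, 1 mouse line of glioblastoma stem cells whose genotype is given as Trp53+/- and Nf1+/-. All mice of both groups carried this line, and nothing in the labels says whether the remaining wild-type allele of either gene was kept in the tumors. The vehicle group received the carrier by mouth and the Xevinapant group 50 mg/kg/day of Xevinapant, a SMAC mimetic that blocks inhibitor of apoptosis proteins, each for 7 days. Fixed single cells were read through gene probes of a 10x Genomics kit and given as counts of unique molecular identifiers (UMIs), in 4 matrices per group.

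The transcription factor p53, encoded by Trp53, is turned on by DNA damage, oncogene signaling and other stress, and it induces genes that arrest or kill the cell. Among these are Cdkn1a, which encodes the cyclin-dependent kinase inhibitor p21, and Mdm2, whose product marks p53 for destruction and so closes a feedback loop. Cdkn2a encodes p16Ink4a, which keeps RB active by inhibiting CDK4 and CDK6, and p19Arf, which inhibits MDM2, while neurofibromin, the product of Nf1, switches RAS off. The probe counts are given per gene, so p16Ink4a and p19Arf cannot be told apart here. The positions of the probes were not examined, so the Cdkn2a counts may read the transcripts of either or of both.

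Promoter windows are shown for the members in which letters of a p53 element were found. Of 300-base windows, 250 bases before to 50 after each start in RefSeq (GRCm38.p6), Cdkn1a and Ccng1 each have 1 that holds a p53 response element, as letters, with 1 mismatch to the consensus of abutting decamers. Such a match at no more than 1 mismatch is found in 29 of all 32851 windows (0.0883%) and without a mismatch in 3 (0.00913%). The windows are given 5′ to 3′, with the element in capitals. That of Cdkn1a is chr17:29090729-29091028 on the plus strand and that of Ccng1, which encodes cyclin G1, is chr11:40755237-40755536 on the minus strand.
Cdkn1a: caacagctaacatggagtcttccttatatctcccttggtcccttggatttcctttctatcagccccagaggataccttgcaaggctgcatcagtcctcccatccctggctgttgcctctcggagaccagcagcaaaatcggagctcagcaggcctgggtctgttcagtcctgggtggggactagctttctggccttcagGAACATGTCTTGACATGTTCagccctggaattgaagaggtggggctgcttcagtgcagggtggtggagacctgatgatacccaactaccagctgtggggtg
Ccng1: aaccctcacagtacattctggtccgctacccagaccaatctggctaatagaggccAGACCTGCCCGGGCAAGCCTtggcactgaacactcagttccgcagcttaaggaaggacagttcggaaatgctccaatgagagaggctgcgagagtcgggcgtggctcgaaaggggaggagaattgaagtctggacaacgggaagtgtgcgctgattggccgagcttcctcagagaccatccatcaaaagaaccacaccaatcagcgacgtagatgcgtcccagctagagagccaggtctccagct
The upstream start of Cdkn2a, from which p19Arf is transcribed, is shown for its E2F letters, since E2F factors are the proteins that RB restrains. The letters TTTCCCGC, TTTGGCGC, TTTCGCGC and TTTGCCGC were searched on both strands and occur in 744 of the windows (2.26%). The window is chr4:89294570-89294869 on the minus strand, with its single match, TTTCCCGC, in capitals.
Cdkn2a: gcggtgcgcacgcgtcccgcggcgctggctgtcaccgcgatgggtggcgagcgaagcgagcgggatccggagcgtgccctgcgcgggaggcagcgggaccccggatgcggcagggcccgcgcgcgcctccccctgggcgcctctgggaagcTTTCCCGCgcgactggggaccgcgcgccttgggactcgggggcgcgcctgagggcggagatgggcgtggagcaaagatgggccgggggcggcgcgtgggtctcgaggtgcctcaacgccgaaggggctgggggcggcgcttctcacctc
The windows of Trp53, Nf1, Cdkn2b and Mdm2, the downstream start of Cdkn2a and the second start of Cdkn1a hold none of these letters at these limits. For Mdm2, whose p53 elements are known to lie inside its gene, the window does not reach them. Rb1 and Zmat3 were not matched.

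After filtering, 50962 of 56943 barcodes were kept as cells. Of these, 34395 (67.5%) were tumor cells by Olig1 and Olig2, 3674 (7.21%) immune, 922 (1.81%) fibroblast and 281 (0.551%) endothelial cells. A further 2691 (5.28%) carried markers of several classes. The other 8999 (17.7%), with a median of 1713 UMIs, did not reach the marker counts required for any class. Vehicle matrices 1 and 3, Xevinapant matrices 1 and 2 and Xevinapant matrices 3 and 4 were nearly alike, their gene counts differing by a median of 2.07 to 7.89 times the variance that counting alone gives. All other matrix pairs within a group differed by 25.6 to 73.3 times, so the joined matrices were not identical but far closer than the rest. Each such pair was counted as 1 sample, which left 3 vehicle and 2 Xevinapant samples, so p-values measure the spread between these 5. Per the study, tumors of 4 mice in each group were sequenced and its processing treats the samples as individual mice, while the library names in the labels call each group a pool, and nothing in the labels ties a matrix to a mouse. Each group had its own batch date, and the labels give the molecule as total RNA for vehicle and polyA RNA for Xevinapant, so date and molecule coincide with the treatment, and their effects cannot be told apart. Per sample, tumor cells held 74505507 to 197037968 UMIs and endothelial cells, the smallest class, 323482 to 861220. Between the groups, 1413 barcodes were found in both a vehicle and a Xevinapant matrix of the same number, with a median ratio of their UMIs of 161 to 172. They made up 1660 of the kept cells, and leaving them out changed 1 count of called members, to 9 in place of 8 against immune cells, where Cdkn2b was then called (1.01; edgeR, adjusted p = 0.0396).

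Levels are given in UMIs per 1000000 UMIs of the class (CPM), always in the order vehicle 1 and 3, vehicle 2, vehicle 4, Xevinapant 1 and 2, Xevinapant 3 and 4. Since each gene has its own probes, levels are compared between cells and not between genes. Stray RNA of tumor cells was estimated by 10 tumor transcripts that were not used for gating. Their summed level was 6.59 to 18.5% of that in tumor cells in immune cells, 8.58 to 34.1% in endothelial cells and 15.2 to 42.4% in fibroblasts. In each of these classes it was lowest in Xevinapant 1 and 2. Of genes that no class gate used, C1qa, a complement gene of macrophages and microglia, had a mean of 4915 CPM in immune and 5.37 CPM in tumor cells, and Sox10 one of 400 CPM in tumor and 44.1 CPM in immune cells. The mural gene Rgs5 stood at a mean of 290 CPM in endothelial cells and 360 CPM in fibroblasts, so both classes held mural transcripts. Cspg4, 1 of the 10 tumor transcripts, had a mean of 535 CPM in tumor cells, 131 CPM in endothelial cells and 270 CPM in fibroblasts. Stray RNA was not separated from expression of these transcripts by the classes themselves. Log2 differences come from edgeR with TMM scaling, which moved the median of all genes by about as much as some members differ. Between tumor and immune cells this median was 0.14 with TMM and 0.51 with library size alone, against endothelial cells 0.11 and 0.36, and against fibroblasts 0.03 and 0.38.

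Among the tumor, immune, endothelial and fibroblast classes, Trp53, 1 of the genes altered in the line, had its highest mean level in tumor cells. It stood at 238, 270 and 219 CPM in the vehicle and 322 and 257 CPM in the Xevinapant tumor samples, a mean of 261 ± 38.9 CPM (SD, n = 5). In immune cells it stood at 144, 161, 161, 125 and 141 CPM, below each tumor sample. Endothelial cells gave 226, 180, 214, 222 and 164 CPM and fibroblasts 186, 139, 142, 155 and 167 CPM, so the endothelial range overlapped that of tumor cells and the fibroblast range did not. The log2 difference of tumor cells was 0.47 (SE 0.11) from immune cells (edgeR, adjusted p = 0.000763), 0.38 (SE 0.11) from fibroblasts (edgeR, adjusted p = 0.00721) and 0.14 (SE 0.12) from endothelial cells (edgeR, adjusted p = 0.33). The last was called with library size alone (0.39, edgeR, adjusted p = 0.0155) and without a filter on low counts (0.33, adjusted p = 0.0339). The call against fibroblasts was lost under stricter gates (0.27; edgeR, adjusted p = 0.201) and without Xevinapant 1 and 2 (0.26; adjusted p = 0.0711). A probe can lie outside the altered part of Trp53, and the other allele, if kept, would also be read, so these counts do not check the genotype.

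Nf1, the RAS GTPase activating protein, was likewise present in tumor cells. Its levels there were 160, 166, 155, 184 and 165 CPM, a narrow range around 166 ± 10.9 (SD, n = 5), and in immune cells 87.9, 97.3, 85.7, 61.4 and 81.8 CPM. All tumor samples lay above all immune samples, with a log2 difference of 0.67 (SE 0.14; edgeR, adjusted p = 0.000366). Against fibroblasts, at 62.1 to 151 CPM, the difference of 0.36 (SE 0.15; edgeR, adjusted p = 0.0426) lost its call without vehicle 2 (adjusted p = 0.133), vehicle 4 (0.0782) or Xevinapant 1 and 2 (0.346), and by DESeq2 (0.28; adjusted p = 0.133). It was also lost without doublet removal (0.0764), at the doublet rate of the study (0.0805) and without the sample block (0.0754), so that 9 of 16 alternatives called it. Against endothelial cells, at 107 to 173 CPM, it was 0.12 (SE 0.16; edgeR, adjusted p = 0.55). As for Trp53, the counts do not check the genotype.

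In the RB branch, Cdkn2a was the member most raised in tumor over immune cells. Tumor cells held it at 252, 224, 273, 284 and 291 CPM, and immune cells at 59.3, 96.7, 60.8, 41.2 and 76.5 CPM. The groups lay far apart, with a log2 difference of 1.67 (SE 0.21; edgeR, adjusted p = 9.3e-07), a 3.19-fold difference, which was 2.74 on the log2 scale under stricter gates and 1.17 without doublet removal. Relative to tumor cells of the same sample the immune level was 14.5 to 43.2% (mean 26.0%), where the 10 tumor transcripts taken for stray RNA gave 6.59 to 18.5% (mean 13.1%). Endothelial cells held 173, 137, 157, 95.6 and 99.9 CPM, also below all tumor samples, and the log2 difference of tumor cells was 0.79 (SE 0.22; edgeR, adjusted p = 0.00595), and 2.03 under stricter gates. Fibroblasts held 244, 96.9, 182, 162 and 255 CPM, and overlapped tumor cells, with 0.15 (SE 0.20; edgeR, adjusted p = 0.522). With library size alone this difference was 0.5 and called (edgeR, adjusted p = 0.0459). Shares of cells with a UMI were taken after thinning to 5000 UMIs, which leaves out shallower cells and keeps 28470 of 34395 tumor, 1550 of 3674 immune, 125 of 281 endothelial cells and 548 of 922 fibroblasts. Of these, 65.0% ± 3.14 (SD, n = 5) of tumor cells had a Cdkn2a UMI, 38.0% ± 7.91 of fibroblasts and 18.1% ± 4.92 of immune cells. At full depth, with medians of 14614, 7324 and 3856 UMIs per cell, the shares were 81.3%, 41.4% and 16.8%. The variance of the count over its mean was 4.74 in fibroblasts and 1.62 in tumor cells, so fibroblast counts were the more unequal between cells.

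Cdkn2b, the neighbor of Cdkn2a on chromosome 4 that encodes p15Ink4b, ran the other way. Tumor cells held only 5.33, 3.06, 3.45, 8.91 and 8.28 CPM. Fibroblasts stood at 18.9, 16.7, 18.8, 26.3 and 49.0 CPM and endothelial cells at 12.4, 31.9, 15.9, 56.5 and 22.1 CPM, all above all tumor samples. The endothelial values rest on 70 UMIs in all. The log2 difference of tumor cells was -2.54 (SE 0.34; edgeR, adjusted p = 4.41e-06) from fibroblasts and -2.50 (SE 0.41; edgeR, adjusted p = 5.69e-05) from endothelial cells. Immune cells, at 1.28 to 6.9 CPM, gave 0.91 (SE 0.41; edgeR, adjusted p = 0.0541), which was called in 7 alternatives and became -0.06 without doublet removal and -0.01 at the doublet rate of the study.

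Rb1 encodes the retinoblastoma protein, which holds back E2F factors. Tumor cells held 70.7, 78.8, 65.1, 56.5 and 71.7 CPM and immune cells 79, 76.6, 78.9, 77.8 and 80.7 CPM, an overlap. The log2 difference was -0.58 (SE 0.11; edgeR, adjusted p = 8.18e-05), and -0.22 (edgeR, adjusted p = 0.052) with library size alone. Fibroblasts, at 26.5 to 46.9 CPM, lay below all tumor samples, and tumor cells were higher by 0.48 on the log2 scale (SE 0.12; edgeR, adjusted p = 0.00195). The endothelial difference was 0.13 (SE 0.14; edgeR, adjusted p = 0.464), and 0.38 (edgeR, adjusted p = 0.0161) with library size alone.

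Cdkn1a, the classic p53 target that encodes p21, was lower in tumor cells than in the immune, endothelial and fibroblast classes. Tumor cells held 69.4, 48.8, 31.9, 109 and 61.1 CPM, the widest relative spread among the members next to Cdkn2b, with Xevinapant 1 and 2 highest and vehicle 4 lowest. Immune cells held 344, 227, 197, 343 and 201 CPM, endothelial cells 127, 143, 132, 330 and 427 CPM, and fibroblasts 258, 254, 98.2, 193 and 201 CPM. In each of the 5 samples each of these classes lay above the tumor cells of that sample, and only the fibroblasts of vehicle 4 fell within the range of the tumor samples. The log2 difference of tumor cells was -2.49 (SE 0.27; edgeR, adjusted p = 1.56e-07) from immune cells, -2.17 (SE 0.28; edgeR, adjusted p = 4.13e-06) from endothelial cells and -2.03 (SE 0.27; edgeR, adjusted p = 4.22e-06) from fibroblasts. With library size alone these were -2.12, -1.92 and -1.69 and still called. Among cells of at least 5000 UMIs, thinned to that depth, 17.2% ± 4.38 (SD, n = 5) of tumor cells had a Cdkn1a UMI, against 47.5% ± 8.68 of immune, 49.8% ± 17.4 of endothelial cells and 30.0% ± 4.0 of fibroblasts. At full depth these shares were 31.2%, 39.4%, 53.3% and 38.3%.

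Mdm2, the ubiquitin ligase of p53 and itself a target, followed Cdkn1a on a smaller scale. Immune cells held 174, 125, 118, 220 and 152 CPM, and tumor cells 75.2, 63.7, 70.4, 94 and 71.1 CPM, without overlap. The log2 difference was -1.43 (SE 0.11; edgeR, adjusted p = 2.82e-09), and from fibroblasts -0.61 (SE 0.12; edgeR, adjusted p = 0.000224). Against endothelial cells, at 75.1 to 98.7 CPM, the difference of -0.46 (SE 0.14; edgeR, adjusted p = 0.00906) lost its call with library size alone (-0.21; adjusted p = 0.152), without a filter on low counts (-0.26; adjusted p = 0.12), under stricter gates (-0.54; adjusted p = 0.0658) and without Xevinapant 3 and 4 (-0.36; adjusted p = 0.0805), among other settings. The call was kept in 11 of 16 alternatives.

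Ccng1, the other member whose promoter letters hold a p53 element, was also lower in tumor cells. They held 30.5, 22.7, 18.8, 25.5 and 23.1 CPM against 98.4, 87.9, 80.1, 81.7 and 66.0 CPM in immune cells and 44 to 80.2 CPM in fibroblasts, so tumor samples lay below all samples of both classes. The log2 differences were -2.14 (SE 0.17; edgeR, adjusted p = 3.24e-09) and -1.59 (SE 0.18; edgeR, adjusted p = 6.15e-07). Endothelial cells, with 98 UMIs in all, ran from 12.4 to 56.9 CPM, and the difference of -0.97 (SE 0.24; edgeR, adjusted p = 0.00221) lost its call under stricter gates (-0.61; adjusted p = 0.215). In vehicle 1 and 3 the endothelial level, 12.4 CPM, lay below the 30.5 CPM of tumor cells.

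Zmat3, which encodes an RNA-binding protein induced by p53, did not follow the other targets. Tumor cells held 42.3, 35.4, 44.2, 47.3 and 42.8 CPM and immune cells 23.6, 18.2, 21.5, 18.5 and 19.7 CPM, so all tumor samples were the higher. The log2 difference from immune cells was 0.71 (SE 0.12; edgeR, adjusted p = 2.52e-05). From fibroblasts it was -0.40 (SE 0.11; edgeR, adjusted p = 0.0058), which became -0.06 (edgeR, adjusted p = 0.842) with library size alone, -0.22 (adjusted p = 0.149) without a filter on low counts and -0.34 (adjusted p = 0.0541) without Xevinapant 3 and 4. From endothelial cells it was 0.23 (SE 0.15; edgeR, adjusted p = 0.212), and 0.48 (edgeR, adjusted p = 0.0101) with library size alone.

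**Figure D1:**
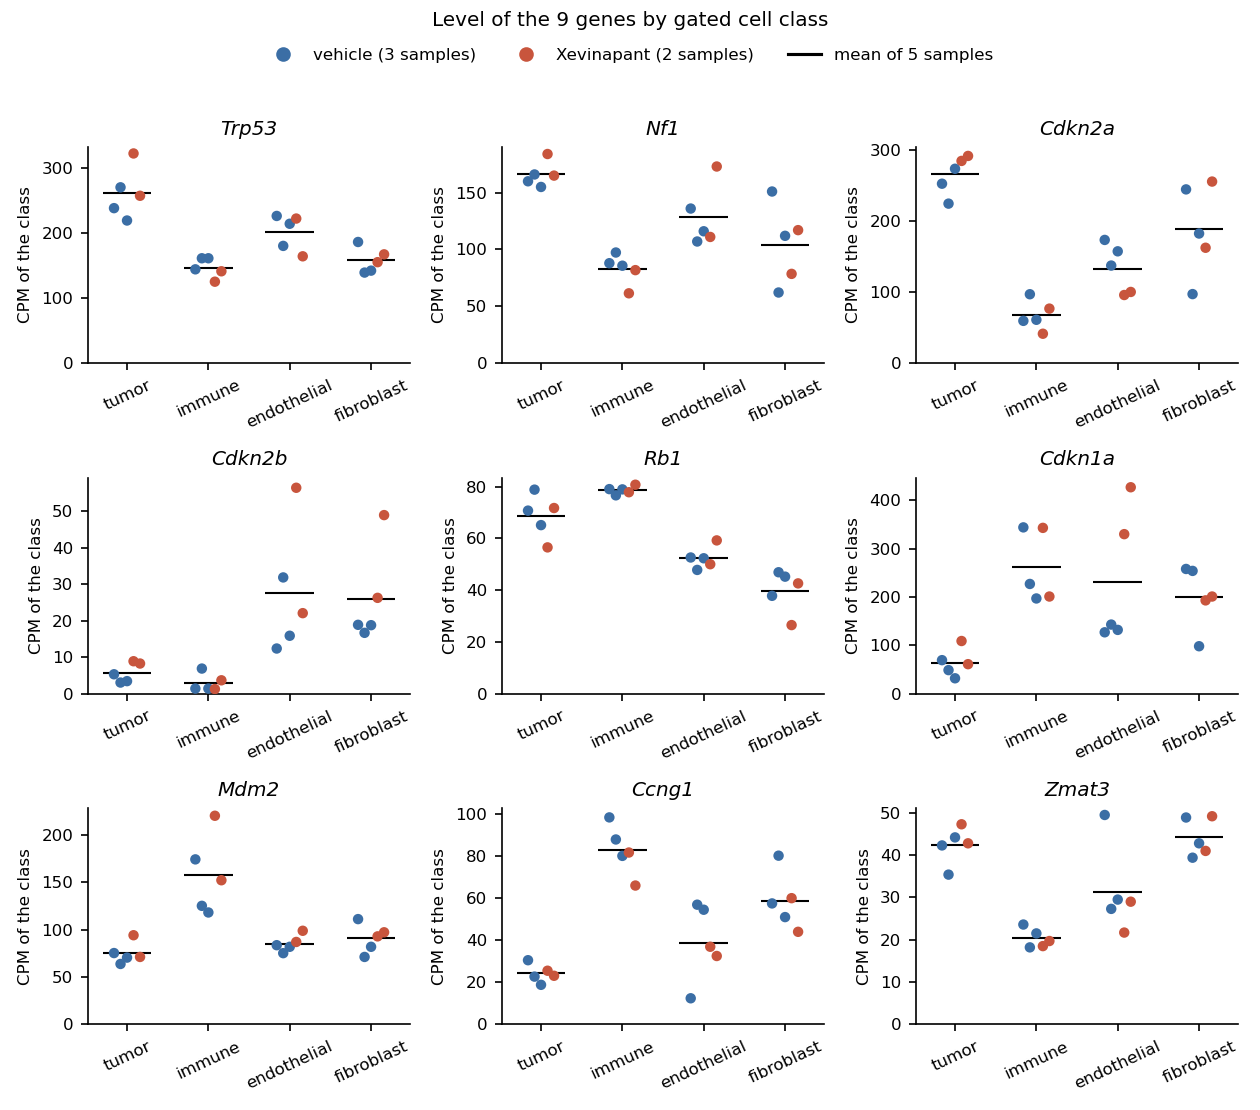
Level of each of the 9 genes (CPM) in tumor, immune, endothelial and fibroblast cells. Points are the 5 samples, vehicle and Xevinapant in different colors, and bars mark the mean. Cdkn1a, Mdm2 and Ccng1 lie lower and Cdkn2a higher in tumor than in immune cells.

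In all, 4 of the 9 genes were higher and 4 lower in tumor than in immune cells (edgeR, adjusted p at 0.05). Of the 12670 genes tested 74.7% were called there, 41.9% higher and 32.8% lower. Against endothelial cells 1 gene was higher and 4 lower, where 55.7% of all genes were called (29.2% higher, 26.5% lower), and against fibroblasts 3 were higher and 5 lower, where 61.2% were called (29.6% higher, 31.6% lower). With library size alone, 69.7%, 66.9% and 68.7% of the called genes were higher in tumor cells, in place of 56.1%, 52.5% and 48.4%. The counts of the 9 genes are read against these shares. All 27 differences kept their sign with library size alone.

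**Figure D2:**
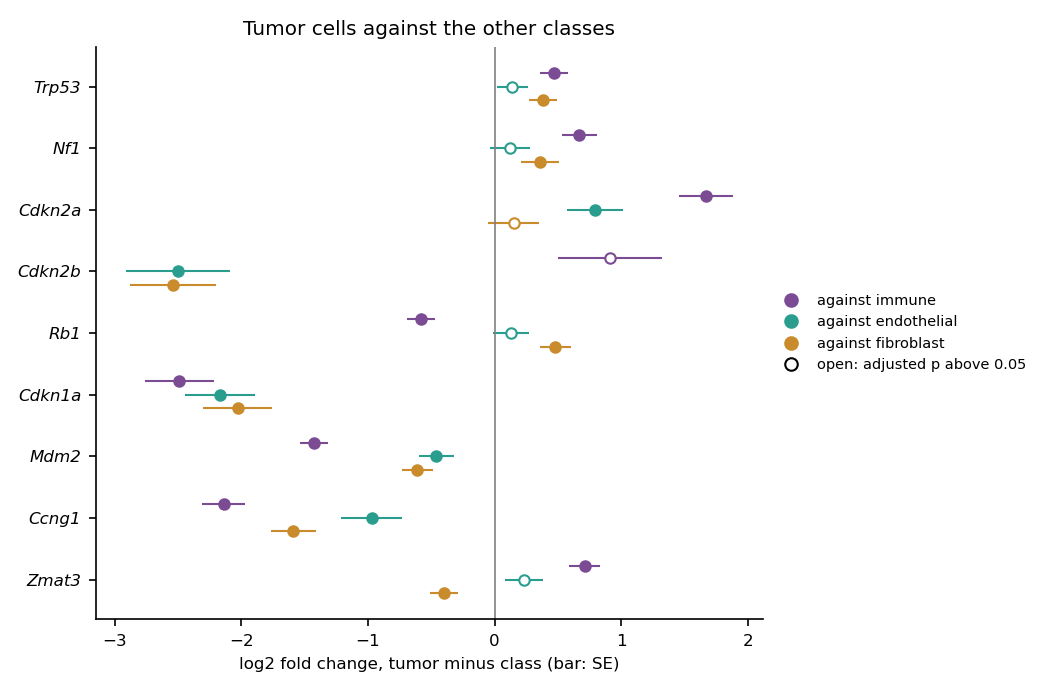
Log2 difference of tumor cells from immune, endothelial and fibroblast cells for the 9 genes, with the standard error derived from the edgeR test as bars. Filled points passed an adjusted p of 0.05. Cdkn1a lies between -2.49 and -2.03 against all 3 classes, while Zmat3 lies between -0.40 and 0.71.

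Further p53 targets moved both ways. Of 33 tested, 8 were higher and 15 lower in tumor than in immune cells, 7 and 13 against endothelial cells, and 7 and 15 against fibroblasts, with a median log2 difference of -0.11, -0.25 and -0.16. Over all genes 41.9, 29.2 and 29.6% were higher and 32.8, 26.5 and 31.6% lower, with a median of 0.14, 0.11 and 0.03. The genes lower in tumor cells included Plk3, a stress-activated kinase (-4.52 from immune cells; edgeR, adjusted p = 3.39e-15), Gdf15, a secreted stress cytokine (-5.30; adjusted p = 1.28e-12), Tnfrsf10b, the TRAIL receptor (-4.49 from endothelial cells; adjusted p = 1.16e-10), and Fas, the death receptor (-3.53 from fibroblasts; adjusted p = 9.18e-08). Pidd1, the death domain protein of the PIDDosome, was the target most raised in tumor cells, by 2.15, 1.94 and 1.71 on the log2 scale (edgeR, adjusted p from 3.48e-10 to 9.42e-08). It was followed against immune cells by Ckap2 (1.58) and Psrc1 (1.44), both of which act on the mitotic spindle.

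Genes around these nodes are read against the same shares of all genes. Of 15 p53 regulators 6 were higher and 4 lower in tumor than in immune cells, with the checkpoint kinase gene Chek1 at 1.52 (edgeR, adjusted p = 2.03e-08), 7 and 2 against endothelial cells, and 9 and 0 against fibroblasts. Of 19 genes of the RB and CDK axis 7 were higher and 5 lower than in immune cells, 5 and 2 against endothelial cells, and 10 and 1 against fibroblasts. Ccnd3, the gene of cyclin D3, was higher by 1.80, 0.99 and 1.37, and Cdk4 by 0.89 over immune and 0.67 over endothelial cells (edgeR, adjusted p from 5.11e-10 to 0.000169). Of 12 genes of RAS GTPase activating and related proteins, 8 were higher and 3 lower than in immune cells, 2 and 6 against endothelial cells, and 2 and 4 against fibroblasts. Of 12 other glioma suppressors 7, 4 and 7 were higher in tumor than in immune, endothelial and fibroblast cells. A list of 11 immediate early and heat shock genes, here called dissociation genes, held Fos, Fosb, Jun, Junb, Egr1, Atf3, Ier2, Ier3, Dusp1, Hspa1a and Hspa1b. The name is only that of the list, and what induced these genes was not tested. Of the 11, 8 were lower and 1 higher in tumor than in immune cells. Against endothelial cells 6 were lower and 0 higher, and against fibroblasts 7 lower and 0 higher. Their part in the difference of Cdkn1a was not tested.

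Within the tumor the level of Cdkn1a was uneven from cell to cell. At 5000 UMIs per cell its variance was 2.87 times its mean, against 1.07 to 1.69 for the other 8 genes. Tumor cells were therefore set apart by 6 to 8 marker genes of the cell cycle or of hypoxia, and compared within each sample. The 2 gates overlap, since 72.1% of the cells in the hypoxia gate and 61.4% of those outside it were in the cycling gate. The deeper cells passed each gate more easily, with a median of 18992 UMIs in and 7876 outside the cycling gate and of 20854 in and 8827 outside the hypoxia gate, and the part of depth in these differences was not tested.

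Cycling tumor cells, 23084 of the 34395, held less Cdkn1a. They stood at 60.0, 45.3, 28.3, 88.7 and 49.3 CPM against 110, 70.1, 56.9, 152 and 118 CPM in the other tumor cells of the same samples. In all 5 samples the cycling cells were lower, by 0.84 on the log2 scale (SE 0.08; edgeR, adjusted p = 9.23e-06). Cdkn2b was lower by 0.87 (SE 0.08; edgeR, adjusted p = 9.01e-06), Ccng1 by 0.34 (adjusted p = 0.000537) and Trp53 by 0.19 (adjusted p = 0.000251). Nf1 was lower by 0.12 (edgeR, adjusted p = 0.0218), a call that was lost without a filter on low counts (-0.07; adjusted p = 0.18) and without Xevinapant 1 and 2 (-0.06; adjusted p = 0.13). Cdkn2a was higher by 0.17 (edgeR, adjusted p = 0.000523) and Rb1 by 0.11 (adjusted p = 0.00862), the latter 0.02 and uncalled with library size alone. These 7 called genes stand beside 69.8% of the 13382 genes tested (33% higher, 36.8% lower). Zmat3 (0.06) and Mdm2 (-0.10; edgeR, adjusted p = 0.0573) were not called, though Mdm2 was with library size alone (-0.18; adjusted p = 0.00248), where 35.6% of all called genes were higher in place of 47.2%. Dissociation genes moved with Cdkn1a, 10 of 11 lower with a median of -0.86, as did 8 of 10 genes of the ATF4 and integrated stress response list (median -0.64), and their part in the difference was not tested. In the RB and CDK list 17 of 19 were higher in cycling cells, led by E2f2 (2.15), Cdkn2c (2.14) and Ccne2 (1.65). The further p53 targets split into 12 higher and 15 lower of 32, with the spindle and G2 genes Psrc1 (3.71), Gtse1 (3.61) and Ckap2 (2.84) at the upper end and Fas (-0.99), Trp53inp1 (-0.89) and the BH3 gene Bbc3 (-0.78) at the lower.

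Tumor cells in the hypoxia gate, 18507 of 34395, held far more Cdkn1a. They stood at 90.6, 62.2, 40.1, 132 and 73.6 CPM, and the other tumor cells at 26.0, 17, 15.4, 24.0 and 18.2 CPM, so that the groups did not overlap. The log2 difference of 1.93 (SE 0.11; edgeR, adjusted p = 1.5e-06) was a 3.82-fold rise. Trp53 itself rose by 0.48 (SE 0.03; edgeR, adjusted p = 4.73e-06), from 190, 212, 185, 240 and 215 CPM outside to 261, 294, 237, 343 and 269 CPM in the gate. Cdkn2b rose by 0.87 (edgeR, adjusted p = 2.21e-05), Cdkn2a by 0.22 (adjusted p = 0.000289), Ccng1 by 0.20 (adjusted p = 0.00193) and Nf1 by 0.11 (adjusted p = 0.0252). Mdm2 rose by 0.08 (edgeR, adjusted p = 0.0265), a call that was lost without any 1 of the 5 samples (0.0535 to 0.0686) and by DESeq2 (0.0962). Zmat3 fell by 0.10 (edgeR, adjusted p = 0.035), a call lost by DESeq2 (0.0664), without each vehicle sample (0.0868, 0.095 and 0.0603) and without Xevinapant 1 and 2 (0.0767). With 7 of the 9 genes higher and 1 lower, the background was 38.7% called (20.5% higher, 18.2% lower). Rb1 was not called (-0.05; edgeR, adjusted p = 0.288), though it was called lower with library size alone (-0.1; adjusted p = 0.0466). With library size alone Nf1 (0.06; edgeR, adjusted p = 0.146) and Mdm2 (0.03; adjusted p = 0.373) lost their calls, and 29.8% of all called genes were higher in place of 52.9%. Of the further p53 targets 10 rose and 7 fell of 32, led by Gdf15 (0.98), Sesn2 (0.81) and Fas (0.61). All 10 genes of the ATF4 list rose, among them Ddit4 (1.78) and Trib3 (1.74), as did 10 of 11 dissociation genes, whose part in the rise was not tested. The lists overlap, since Sesn2 is also in the ATF4 list and Atf3 is in both the ATF4 and the dissociation list.

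Tumor cells that held Cdkn1a were then looked at directly, at 5000 UMIs per cell. Cells with at least 2 Cdkn1a UMIs numbered 320, 205, 247, 351 and 480, or 6.42, 4.87, 2.97, 10.3 and 6.35% of the tumor cells of this depth, and were set against 23853 cells without a Cdkn1a UMI. Trp53 stood at 441, 535, 402, 528 and 465 CPM in the former and 232, 262, 221, 309 and 262 CPM in the latter. All 5 positive groups lay above all negative ones, with a log2 difference of 0.97 (SE 0.06; edgeR, adjusted p = 6.01e-12), rank 507 from the top among 11937 genes. Cdkn2b rose by 1.55 (SE 0.23; edgeR, adjusted p = 8.19e-06) on 123 UMIs, Mdm2 by 0.63 (SE 0.08; adjusted p = 1.06e-06) and Nf1 by 0.33 (SE 0.06; adjusted p = 0.000105). Ccng1 rose by 0.41 (SE 0.13; edgeR, adjusted p = 0.0154), a call that was lost without Xevinapant 1 and 2 (0.26; adjusted p = 0.147), outside the cycling gate (0.31; adjusted p = 0.146) and with library size alone (0.32; adjusted p = 0.0535). Cdkn2a rose by 0.18 (SE 0.06; edgeR, adjusted p = 0.023), and lost its call without any 1 of 4 of the 5 samples (0.13 to 0.18, adjusted p 0.0666 to 0.15) and with library size alone (0.09; adjusted p = 0.21). Rb1 (0.14) and Zmat3 (-0.25; edgeR, adjusted p = 0.0717) were not called, though Zmat3 was with library size alone (-0.34; adjusted p = 0.0174). The 6 of 8 genes higher stand beside 46.8% of all genes called, 24.1% higher and 22.8% lower. Of the called genes 51.4% were higher, and 37.1% with library size alone.

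Among genes with a mean log2 CPM of at least 3, those that rose most in Cdkn1a-positive tumor cells included the hypoxia genes Ndrg1 (4.31), Car9 (4.19), Ero1l (3.41), P4ha2 (3.40) and Slc2a1 (3.31), the integrated stress gene Trib3 (3.54) and Fosl2 (3.43), an AP-1 subunit (edgeR, adjusted p from 1.21e-19 to 9.16e-15). Those that fell most were Tmem121b (-2.59), the astrocyte gene Mlc1 (-2.20), Gdpd2 (-2.19) and Gask1b (-2.17). Of 32 further p53 targets 9 rose and 8 fell, with Gdf15 (2.05), Sesn2 (1.98) and Bbc3 (1.28) up and Gtse1 (-0.83), Aen (-0.78) and Tigar (-0.57) down. In the RB and CDK list 14 of 19 fell, led by Ccne1 (-1.14) and Ccnd2 (-1.02), and 4 rose, among them the p27 gene Cdkn1b (0.85). All 10 genes of the ATF4 list and all 11 dissociation genes rose, and the part of either in the level of Cdkn1a was not tested.

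**Figure D3:**
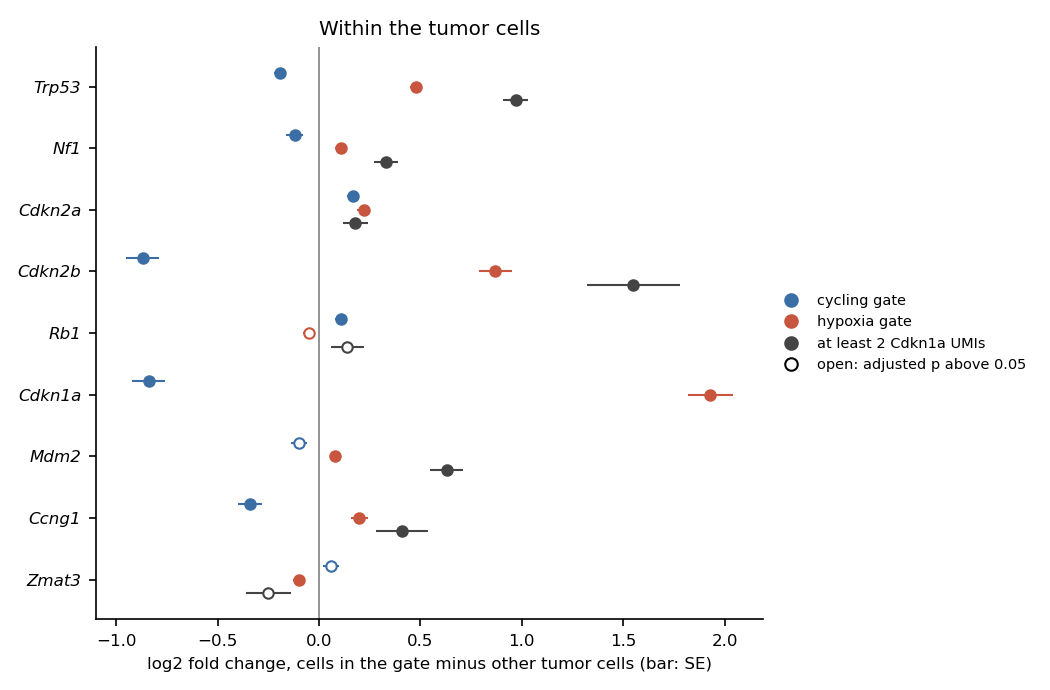
Log2 difference of each gene between tumor cells in the cycling gate, in the hypoxia gate or with at least 2 Cdkn1a UMIs and the tumor cells they were compared with, with the standard error as bars. Filled points passed an adjusted p of 0.05, and Cdkn1a lies at -0.84 for the cycling and 1.93 for the hypoxia gate (the Cdkn1a-positive cells have no Cdkn1a point, since it chose them).

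Xevinapant was compared with vehicle in each class. In tumor cells no member was called, as no gene was of 14316 tested (edgeR, 0% called), while 1465 genes had an unadjusted p under 0.05 and DESeq2 called 194. Cdkn2b had the largest difference, from 5.33, 3.06 and 3.45 CPM to 8.91 and 8.28 CPM, a log2 difference of 1.08 (SE 0.30; edgeR, adjusted p = 0.474). The groups did not overlap for Cdkn2b or for Cdkn2a, which went from 252, 224 and 273 to 284 and 291 CPM (0.16, SE 0.12; edgeR, adjusted p = 0.656), beside 18.4% of all genes with both Xevinapant samples higher and 10.4% with both lower (28.8% in either direction). Cdkn2b was called by DESeq2 (adjusted p = 0.0324) and with each matrix as 1 sample (edgeR, 0.97; adjusted p = 0.0395). Cdkn1a, at 69.4, 48.8 and 31.9 against 109 and 61.1 CPM, overlapped (0.73, SE 0.35; edgeR, adjusted p = 0.516), and Trp53 gave 0.21 (SE 0.16; adjusted p = 0.644). The summed level of the 8 hypoxia genes in tumor cells was 1280, 1423 and 1055 CPM in vehicle and 2404 and 1437 CPM in Xevinapant samples, and that of 11 dissociation genes 645, 505 and 512 against 1399 and 1167 CPM. That of 6 cycling genes was 2835, 2914 and 2987 against 2000 and 2355 CPM, and the part of these 3 lists in these differences was not tested. Nf1, Rb1, Mdm2, Ccng1 and Zmat3 ran from -0.21 to 0.20, with adjusted p from 0.618 to 0.975 in edgeR. These values leave room for changes larger than their standard errors and do not show that the levels were equal.

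Among further p53 targets none was called in any class (edgeR). At an unadjusted p under 0.05 were 2 of 34 in tumor cells, where 10.2% of all genes were, 4 of 31 in immune cells (10.1% of all genes), 2 of 22 in endothelial cells (15.2%) and 8 of 32 in fibroblasts (9.64%).

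Endothelial cells were the class with a called member. Cdkn1a there went from 127, 143 and 132 CPM in vehicle to 330 and 427 CPM in Xevinapant samples, on 682 UMIs in all and at least 41 in each sample. Both Xevinapant samples lay above all vehicle samples, with a log2 difference of 1.53 (SE 0.19; edgeR, adjusted p = 0.00601), a 2.89-fold rise. It was 1 of 36 called genes of 8623 (0.417%; 0.36% higher, 0.058% lower), while 1311 genes had an unadjusted p under 0.05, DESeq2 called 77 and edgeR without a filter on low counts 475. The call was lost without Xevinapant 3 and 4 (1.34, edgeR, adjusted p = 0.0691) and under stricter gates (1.32, adjusted p = 0.211). Without the other samples in turn the call was kept, and so was it without the shared barcodes (1.53; edgeR, adjusted p = 0.00659). Over 34 to 95 endothelial cells per sample, the summed level of 8 hypoxia genes was 1008, 965 and 761 CPM in vehicle and 1697 and 2164 CPM in Xevinapant samples, and that of 11 dissociation genes 995, 817 and 800 against 2399 and 1680 CPM, with Ier3 (2.20), Junb (1.49) and Hspa1b (5.02) among the called genes (edgeR, adjusted p from 0.00313 to 0.0262). The summed level of 6 cycling genes there was 1311, 1760 and 1025 against 854 and 947 CPM. The part of these lists in the rise of Cdkn1a was not tested. Mdm2 was also higher without overlap, at 83.5, 75.1 and 81.8 against 86.9 and 98.7 CPM, and Cdkn2a lower, beside 15.6% and 17.2% of all genes (32.8% in either direction). Neither was called.

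In immune cells Cdkn1a was 344, 227 and 197 CPM in vehicle and 343 and 201 CPM in Xevinapant samples, a log2 difference of 0.15 (SE 0.35; edgeR, adjusted p = 0.903) that turned to -0.42 without Xevinapant 1 and 2. In fibroblasts it was 258, 254 and 98.2 against 193 and 201 CPM (0.05, SE 0.38; edgeR, adjusted p = 0.982), and the sign turned with the scaling. In immune cells 1 gene of 11852 was called (0.00844%, higher), the mast cell protease gene Cma1 at 0.353, 0 and 0 CPM against 33.9 and 52.4 CPM, named after its values were seen, and in fibroblasts none of 11738 (0%). At an unadjusted p under 0.05 were 1201 and 1131 genes, and DESeq2 called 66 and 76. Without overlap, Trp53 and Nf1 were lower in Xevinapant immune cells, beside 14% of all genes (27.1% in either direction), and Cdkn2b higher in Xevinapant fibroblasts, beside 8.3% (25.8% in either direction). The 10 tumor transcripts taken for stray RNA stood in immune cells at 11.2, 18.5 and 15.2% of their tumor level in vehicle samples. In Xevinapant samples they stood at 6.59 and 13.7%, and their part in the lower Trp53 and Nf1 was not tested. The effect on Cdkn1a in tumor cells was not shown to differ from that in endothelial cells (-0.79, SE 0.45; edgeR interaction, adjusted p = 0.804), immune cells (0.60, SE 0.41; adjusted p = 1.0) or fibroblasts (0.57, SE 0.41; adjusted p = 0.985). These 3 tests called no gene of 13307, with 857, 424 and 780 at an unadjusted p under 0.05 and 1, 3 and 5 called by DESeq2.

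**Figure D4:**
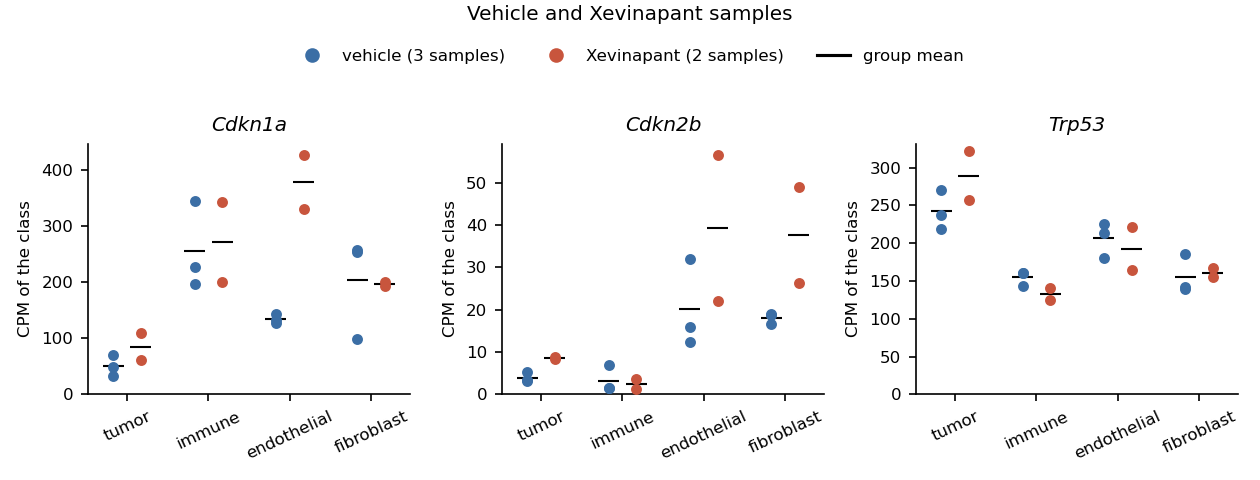
Level (CPM of the class) of Cdkn1a, Cdkn2b and Trp53 in the 3 vehicle and 2 Xevinapant samples of each class, with the group mean as a bar. Both Xevinapant endothelial samples (330 and 427 CPM) lie above the vehicle samples (127 to 143 CPM) for Cdkn1a, while the groups overlap in the other classes.

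Among immune cells the level of Cdkn1a differed with the kind of cell. In 2531 cells with macrophage or monocyte markers it stood at 365, 238, 219, 316 and 209 CPM. This gate did not exclude microglia markers, with Tmem119 at a mean of 430 CPM and P2ry12 at 106 CPM in it against 433 and 100 CPM in all immune cells, and 1703 of its cells fell outside a gate for microglia markers. In 361 cells with neutrophil markers it stood at 341, 492, 366, 1152 and 493 CPM on 500 UMIs, which was not tested. Of these cells 219 came from Xevinapant 1 and 2 and only 7 and 10 from vehicle 2 and vehicle 4, with as few as 4 Cdkn1a UMIs in a sample. The 170 cells with T or NK markers held it at 21.6, 0, 82.2, 45.3 and 19.4 CPM on 18 UMIs, below every value of the macrophage or monocyte gate. In all samples but vehicle 4 this was also below the tumor cells, at 69.4, 48.8, 31.9, 109 and 61.1 CPM. Trp53 stood in these T or NK cells at 431, 150, 153, 299 and 233 CPM on 129 UMIs. Tumor cells held it at 238, 270, 219, 322 and 257 CPM, and neither difference was tested. Mdm2 in the neutrophil gate ran from 73.2 to 1706 CPM, on as little as 1 UMI in a sample. The macrophage or monocyte gate was compared with the microglia gate over the 3 samples with at least 10 cells in the microglia gate. The microglia gate held 16, 2, 28, 5 and 30 cells, 81 in all, and Cdkn1a stood there at 260, 157, 46.8, 366 and 61.4 CPM on 61 UMIs. In vehicle 2 and Xevinapant 1 and 2, which had too few cells, it was 157 against 238 CPM and 366 against 316 CPM, so that in the latter the microglia gate was the higher. Over the 3 tested samples Cdkn1a was higher in the macrophage or monocyte gate by 1.61 on the log2 scale (SE 0.27; edgeR, adjusted p = 0.000184), the only member called beside 6.4% of 10370 genes (4.39% higher, 2.02% lower), of which 68.5% were higher and 45.8% with library size alone. Cdkn2b was too low to be tested. In the same comparison the dissociation list had a median of 0.53, with 4 of 11 genes called higher, and the ATF4 list a median of 1.17, with 4 of 9 called higher, against 0.01 for all genes, and their part was not tested. Under stricter gates the difference was 2.34 and still called. With both groups redrawn after seeing the data, as 931 immune cells with microglia markers and the 1703 macrophage or monocyte cells without them, it was 0.80 (edgeR, adjusted p = 0.00497). In vehicle 4 the Cdkn1a levels of these redrawn groups ran the other way, at 206 CPM with and 200 CPM without microglia markers. Mdm2 stood at 111, 91.5, 95.7, 138 and 106 CPM with microglia markers. Without them it stood at 197, 180, 170, 237 and 184 CPM, so the redrawn groups did not overlap for Mdm2. The ranges of all other members overlapped between the redrawn groups.

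On the chromosomes, Trp53 lies at chr11:69580359-69591873 and Nf1 at chr11:79339693-79581612, Cdkn2a at chr4:89274471-89294653 and Cdkn2b at chr4:89306299-89311039, Rb1 at chr14:73183673-73325822, Cdkn1a at chr17:29090976-29100727, Mdm2 at chr10:117688875-117710758, Ccng1 at chr11:40748552-40755311 and Zmat3 at chr3:32334792-32366014 (GRCm38). Nf1 holds Omg, Evi2, Evi2a and Evi2b on its opposite strand, and Rb1 overlaps Rcbtb2 and Lpar6, which were counted by probes of their own. Of the 20 measured genes nearest to Trp53, within 0.459 Mb, 12 had a positive log2 difference of tumor from immune cells, with a median of 0.37 against 0.15 for chromosome 11. Around Nf1 it was 11 of 20 with a median of 0.09, around Cdkn2a and Cdkn2b 7 of 20 with -0.41, against -0.23 for chromosome 4, and around Rb1 9 of 20 with -0.36, against 0.29 for chromosome 14. Against endothelial cells and fibroblasts the medians around Rb1 were -0.01 and -0.04 (10 of 20 each), around Trp53 0.41 and 0.26, around Nf1 0.06 and 0.11, and around Cdkn2a and Cdkn2b -0.38 and -0.33. The neighbors of Rb1 include Lcp1 (-8.98 from immune cells), 1 of the genes of the immune gate. Single neighbors ran, against immune cells, from -9.06 to 2.58. The counts do not tell whether a copy was lost.

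Across 11 classes and gates, each member was compared with the genes that had a mean of at least 20 CPM over them. Among these, the genes whose mean log2 CPM ran most like that of Trp53 were Fubp1, Trpm7 and Eef1akmt2 (Pearson r = 0.99 for each). For Cdkn1a they were the glucose transporter gene Slc2a1 (0.97), Cyb5r1 (0.97) and Il13ra1 (0.96). For Cdkn2b they were the matrix gene Sparc, the protease gene Prss23 and Fkbp10 (0.99 for each). Rb1 had no closer match than 0.90 among the genes searched. Slc2a1 is itself a gene of the hypoxia gate. These r describe classes drawn from the same 5 samples, some of which overlap, and are not tests.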

How the data were processed

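The authors deposited UMI counts, unnormalized whole numbers per gene and cell, in 8 matrices. Per the labels, Cell Ranger 3.0 mapped the reads to mm10, while the file headers name version 7.1.0. The study's stated filters were applied: a barcode needed 200 or more genes, no more than 10% of UMIs from mitochondrial genes, and a ratio of log10 gene number to log10 UMI number of 0.8 or higher. The highest Scrublet scores (scanpy 1.11.5) were removed as doublets at 0.8% per 1000 cells, a rate chosen here; the study's methods give 0.08% and joined 3 callers, of which DoubletFinder and scDblFinder were not used here.

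A tumor cell had at least 2 UMIs on Olig1 and Olig2 and passed no other gate. An immune, endothelial or fibroblast cell had at least 5 UMIs on 3 or more of 10 markers, with every other list at or under 20% of that sum. Near-identical matrices were joined, which left 5 samples. Counts were summed per sample and class and tested over all genes by edgeR 4.0.16 (TMM, filterByExpr, quasi-likelihood test, Benjamini-Hochberg at 0.05), with the sample as a block where classes of the same samples were compared. This pairing comes from the shared libraries. The standard error (SE) was derived as the size of the log2 difference divided by the square root of the edgeR F statistic. CPM is the sum divided by the class total, times 1000000. For shares of cells, cells with at least 5000 UMIs were thinned to that number and shallower cells left out. The test was run on simulated counts, where 92% of 50 genes raised 2-fold and 82% of 50 lowered to 0.5-fold, but only 22% at 1.5-fold and 22% at 0.667-fold, were recovered for the treatment comparison in tumor cells, among 14312 genes. The simulated counts had the same dispersion for every gene. These shares therefore need not hold for genes that spread more between samples. DESeq2 1.42.0, library size without TMM, other gates and filters, each matrix as 1 sample and each sample left out were the alternatives. Leaving out barcodes found in both groups, doublet removal at 0.08%, immune cells outside the neutrophil gate and redrawn microglia and macrophage groups were chosen after seeing the data.

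The 9 genes were looked up in each comparison, but in some comparisons only part of them is named. In each further list, results by name were limited to called genes, the top 3 in either direction. Sesn2 is in both the p53 target and the ATF4 list, and Atf3 in both the ATF4 and the dissociation list. The 9 genes, the lists and the gates were chosen with earlier results of these data known. Positions are from GENCODE M21 on GRCm38, and promoter sequences from RefSeq, read for 7 of the 9 genes. Software ran under R 4.3.3 and Python 3.11.15. The results of some genes are not reported here.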

Additional observations from a re-analysis of the deposited data

How the results depend on the processing

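Across the alternatives, 662 recomputed values of called genes kept their call, 68 lost it and 0 changed sign. Under stricter gates Cdkn2a was 2.74 in place of 1.67 above immune and 2.03 in place of 0.79 above endothelial cells. Under stricter gates 3 of the 9 genes were called between tumor and endothelial cells in place of 5, and 0 in place of 1 between Xevinapant and vehicle in endothelial cells (0 to 1 with a sample left out, 0 without Xevinapant 3 and 4). In the treatment comparison of tumor cells DESeq2 and each matrix as 1 sample called 1 in place of 0 (194 and 455 of all genes in place of 0). Without the replicate block, the pairing of cells from the same sample, the counts fell to 0 from 7 for cycling cells, 1 from 8 for the hypoxia gate, 4 from 6 for Cdkn1a-positive cells and 0 from 1 for macrophages or monocytes against microglia, and of all genes from 9342 to 3783, 5288 to 146, 5589 to 2571 and 664 to 356. With both the microglia and the macrophage or monocyte group redrawn by microglia markers 2 members and 2510 genes were called, in place of 664, and DESeq2 called 287, stricter gates 192 and the omission of a sample 252 to 664. Leaving out a sample gave 8 to 9 members against immune cells, 4 to 5 against endothelial cells, 6 to 8 against fibroblasts, 6 to 8 in cycling, 6 to 7 in hypoxia-gated and 4 to 6 in Cdkn1a-positive cells.

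In the treatment comparison of endothelial cells the 36 genes called of all became 77 with DESeq2, 475 without a filter on low counts, 106 with each matrix as 1 sample, 64 with at least 2000 UMIs, 4 under stricter gates and 8 to 19 with a sample left out. In immune cells the single call became 66 with DESeq2, 13 with each matrix as 1 sample, 2 under stricter gates and 0 with a sample left out, and in fibroblasts 0 became 76 with DESeq2, 116 without a filter and 0 to 1 with a sample left out. For the difference of the treatment effect in tumor cells from that in immune, endothelial and fibroblast cells, 0 became 5, 15 and 162 without a filter, and 0, 2 and 16 with each matrix as 1 sample.

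Of the uncalled values of members 74 changed sign, among them Cdkn2b between tumor and immune cells (-0.06 without doublet removal, -0.01 with doublets removed at 0.08% per 1000 cells), Zmat3 in cycling cells (-0.02 without TMM), Cdkn1a under Xevinapant in immune cells (-0.42 to 0.55 with a sample left out, of which -0.02 without vehicle 4 and 0.05 without vehicle 2), and in fibroblasts (-0.03 without TMM, -0.08 with each matrix as 1 sample, -0.28 under stricter gates, -0.31 to 0.28 with a sample left out). The causes were not tested. The treatment comparisons rest on 3 against 2 samples and on as few as 34 endothelial cells in a sample.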
